A study of Rattus norvegicus with 40 samples.

Results

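Hepatic mRNA abundance was examined for a group of 10 genes that carry hormone and xenobiotic signals to the liver: the nuclear receptors Nr1i2, Nr1i3, Nr1h3, Rxra, Nr3c1, Esr1 and Thrb, the enzyme Hsd11b1, the plasma protein Serpina6 and the glucocorticoid-induced gene Tsc22d3. Every probe set of the rat RAE230A array with exactly 1 of these symbols was taken, which gave 12 of the 15866 probe sets measured and 10 of 10411 genes. Nr3c1 and Thrb have 2 probe sets each and the other 8 genes have 1 each. All values are log2 signals, so a difference of 1 is a doubling.

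The livers came from male rats of 10 to 12 weeks that differ in their aryl hydrocarbon receptor (AHR), the transcription factor that the dioxin TCDD activates. H/W and LnA rats are resistant to dioxin and have an AHR that lacks part of the transactivation domain, whereas L-E and LnC rats are sensitive and have the wild-type receptor. The lines LnA and LnC descend from H/W × L-E matings and so differ from each parental strain in more than the receptor. A single gavage of 100 ug/kg TCDD or of the corn oil vehicle was given, and liver was taken 19 h later from 4 rats in each of 8 groups. Liver was taken 3 h after TCDD from 4 H/W and 4 L-E rats, for which there is no corn oil group at that time. The rats of a group shared a cage, so an effect of the cage and the treatment cannot be told apart, and each rat gave 1 array.

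Nuclear receptors are transcription factors that switch genes on or off when a small lipid-soluble ligand binds. Nr1i2 (PXR) and Nr1i3 (CAR) sense foreign chemicals and drive drug-metabolizing enzymes, Nr1h3 (LXR alpha) senses oxysterols and drives lipid synthesis and sterol disposal, and all of these bind DNA with Rxra (RXR alpha) as partner. Nr3c1 is the glucocorticoid receptor, Esr1 an estrogen receptor and Thrb a thyroid hormone receptor. In liver, Hsd11b1 reduces the inactive 11-keto steroid to the active glucocorticoid, Serpina6 is the corticosteroid-binding globulin secreted into plasma, and Tsc22d3 (GILZ) is a classic target of the glucocorticoid receptor.

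The 250 bases before the transcription start were read from RefSeq (build GRCr8) for 8 of the 10 genes, with 11 starts in all, and those of Hsd11b1 and Serpina6 were not analysed here. The stretches of Nr1h3, Nr1i2 and Nr1i3 are shown because these receptors had higher group means after TCDD in the 4 strains/lines and each has 1 start. They are read 5′ to 3′ on the strand of the gene, from chr3:97623230-97623479 (minus strand) for Nr1h3, chr11:75965467-75965716 (plus strand) for Nr1i2 and chr13:86165170-86165419 (plus strand) for Nr1i3, and end at the last base before the start. Capitals mark any match on either strand to GCGTG, the core that the AHR dimer binds, or to AGAACA, a core of glucocorticoid receptor sites.
Nr1h3: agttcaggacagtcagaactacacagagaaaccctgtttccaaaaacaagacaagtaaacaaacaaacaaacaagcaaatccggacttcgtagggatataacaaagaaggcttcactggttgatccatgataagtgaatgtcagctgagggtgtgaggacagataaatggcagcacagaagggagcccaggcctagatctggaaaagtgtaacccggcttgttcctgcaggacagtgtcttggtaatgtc
Nr1i2: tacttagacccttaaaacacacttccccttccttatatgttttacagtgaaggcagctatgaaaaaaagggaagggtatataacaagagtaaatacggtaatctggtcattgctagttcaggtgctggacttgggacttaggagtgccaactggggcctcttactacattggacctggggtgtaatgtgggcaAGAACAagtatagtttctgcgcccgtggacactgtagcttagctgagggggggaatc
Nr1i3: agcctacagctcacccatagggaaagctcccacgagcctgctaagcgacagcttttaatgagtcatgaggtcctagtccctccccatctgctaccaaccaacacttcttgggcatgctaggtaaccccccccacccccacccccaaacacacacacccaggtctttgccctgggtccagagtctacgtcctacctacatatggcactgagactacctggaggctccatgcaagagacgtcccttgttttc
The Nr1h3 and Nr1i3 stretches held neither motif, and the Nr1i2 stretch held 1 AGAACA, which begins 57 bases before the start. GCGTG was found before 3 of the 11 starts, in 1 start each of Nr3c1, Thrb and Tsc22d3, and in 25.9% of the 33469 stretches of this length over all genes. AGAACA was in 17.5% of those stretches.

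The deposited values passed the checks made on the labels. Cyp1a1, the best known AHR target, read 13.91 or more in every TCDD array and 8.60 or less in every corn oil array. The strain recorded by the scanner matched the label in 40 of 40 arrays. Array medians lay between 3.52 and 3.76. All 6 hepatocyte markers measured lay above the array median in each of the 10 groups. Esr1 was above its array's median in 1 of 40 arrays and both Thrb probe sets in 0 of 40, so differences in these 3 probe sets describe the low end of the scale. Of the Nr3c1 probe sets the second averaged 3.94, near the array medians, and the first 7.79, so Nr3c1 below means the first unless the other is named. In whole liver, fewer cells of a type and less RNA per cell cannot be told apart.

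After TCDD at 19 h, Nr1h3 had more signal than after corn oil in all 4 strains/lines with no overlap, and Nr3c1, Hsd11b1 and Serpina6 had lower group means in all 4. limma was run separately for each strain/line, with p adjusted over all 15866 probe sets and a probe set called at an adjusted p under 0.01. Nr1h3 rose in H/W and LnC rats and Hsd11b1 fell in LnC rats. Of the 12 probe sets, 1 was called in H/W, 0 in LnA, 0 in L-E and 2 in LnC rats, where 0.366%, 0.782%, 1.68% and 0.901% of all probe sets were called in the same order. With the looser limit of 0.05 the numbers became 3, 2, 3 and 2 of 12, beside 1.22%, 2.47%, 5.21% and 3.01% of all probe sets. At an unadjusted p under 0.05 they were 6, 5, 4 and 6 of 12, beside 11.1%, 12.3%, 16.8% and 13% of all probe sets. The LnA replicate numbers met the criterion for pairing, and with them as a block 15 probe sets, in place of 124, were called in LnA rats, with 0 of the 12. The TCDD and corn oil rats did not overlap for 3 probe sets in H/W, 3 in LnA, 4 in L-E and 5 in LnC rats, beside 7.31%, 7.73%, 11.6% and 8.57% of all probe sets. Over the 12 probe sets the median difference lay between -0.10 and -0.03 in the 4 strains/lines, against -0.04 to 0.01 over all probe sets.

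**Figure D1:**
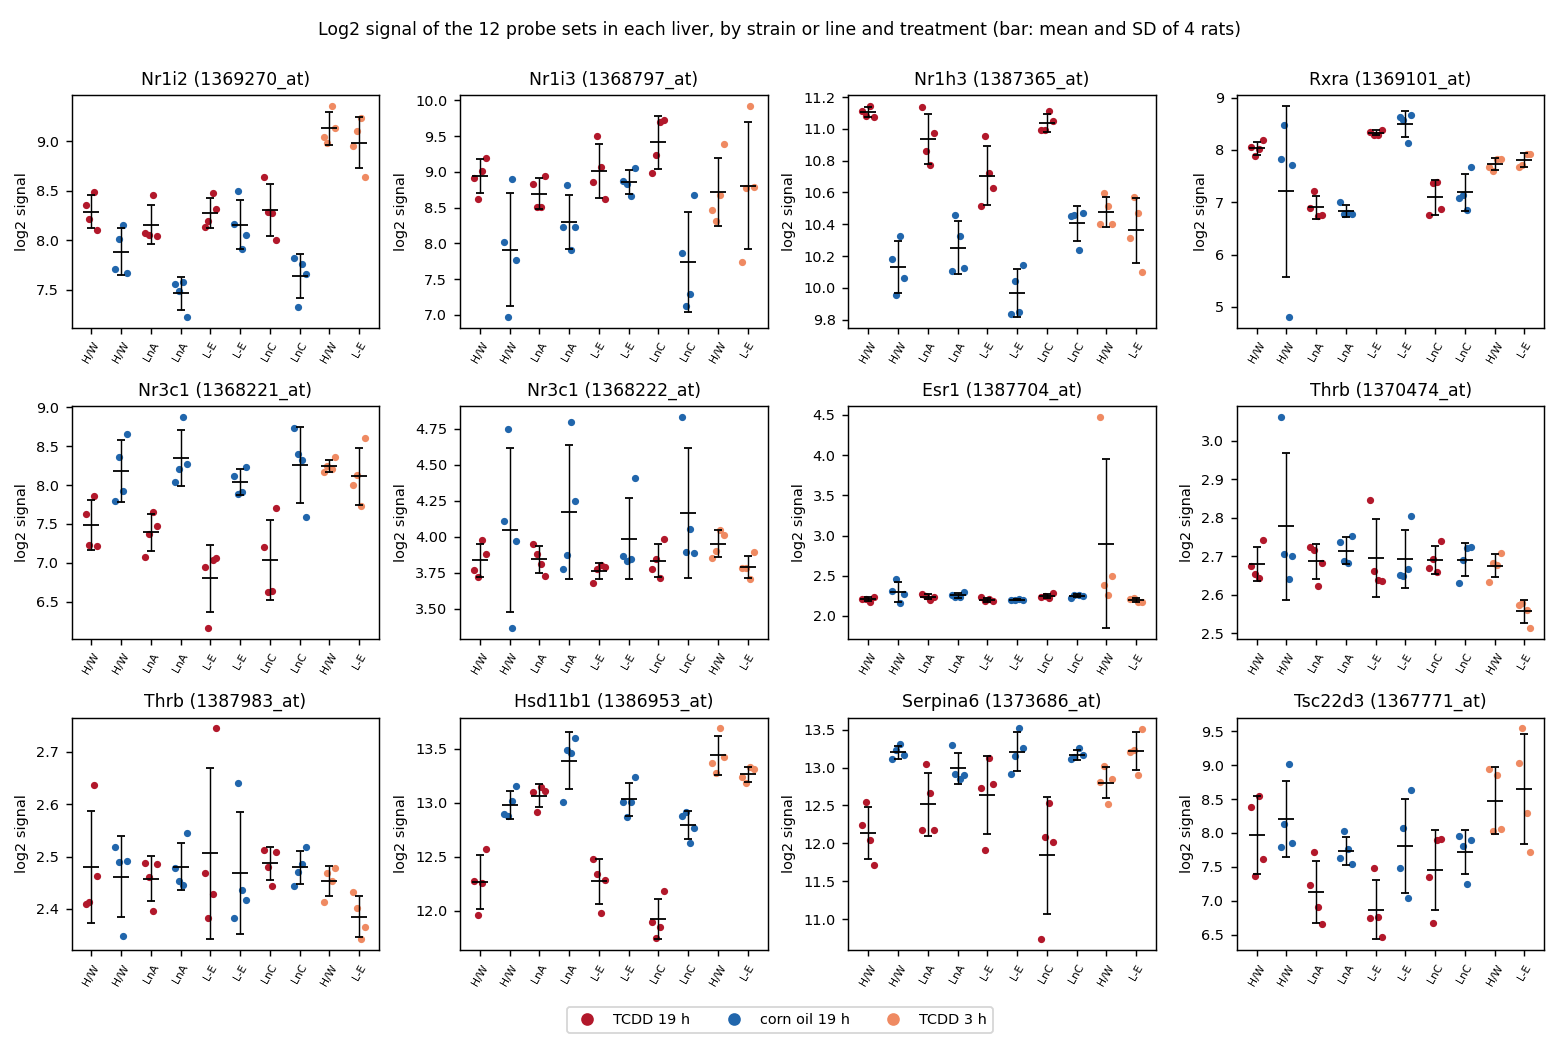
Log2 signal (y axis) of the 12 probe sets in every liver, by strain or line (x axis), with red points for TCDD at 19 h, blue for corn oil at 19 h and orange for TCDD at 3 h, and black bars for the mean and SD of 4 rats. The Nr1h3 points after TCDD at 19 h lie above the corn oil points in each strain/line, and 1 H/W corn oil rat stands at 4.80 for Rxra.

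Nr1h3 was measured with little spread. In H/W rats Nr1h3 read 11.11, 11.08, 11.15 and 11.08 after TCDD and 10.18, 9.95, 10.33 and 10.06 after corn oil. In LnA rats Nr1h3 read 11.14, 10.86, 10.78 and 10.98 after TCDD and 10.11, 10.46, 10.32 and 10.13 after corn oil. In L-E rats Nr1h3 signals were 10.52, 10.95, 10.72 and 10.63 after TCDD and 9.84, 10.04, 9.85 and 10.15 after corn oil. The lowest TCDD rat of each of these 3 groups stood above the highest corn oil rat. The LnC rats had 10.99, 11.00, 11.11 and 11.05 after TCDD and 10.45, 10.46, 10.24 and 10.47 after corn oil. Again the groups did not overlap. The log2 difference was 0.97 ± 0.08 (SE, n = 4 and 4, 1.96-fold, adjusted p = 0.00188) in H/W rats and 0.63 ± 0.06 (1.55-fold, adjusted p = 0.00255) in LnC rats, which passed the threshold. It was 0.69 ± 0.11 (adjusted p = 0.0182) in LnA and 0.74 ± 0.11 (adjusted p = 0.0139) in L-E rats, which did not. Within the scan days that held both treatments of a strain, 3 for H/W and 2 for L-E rats with 1 to 3 rats per treatment, the difference was 0.93, 0.97 and 1.01 in H/W rats and 0.68 and 0.76 in L-E rats. The H/W call was lost with scan day as a block (adjusted p = 0.0199) and without H/W corn oil rat 1 (0.0103) or H/W TCDD rat 4 (0.0106). The LnC call was lost without any 1 of 5 rats (LnC corn oil rats 1 and 2 and TCDD rats 2, 3 and 4), with an adjusted p of 0.0122 or less.

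Hsd11b1, the enzyme that regenerates active glucocorticoid, showed the opposite direction. In H/W rats Hsd11b1 read 12.28, 11.97, 12.26 and 12.57 after TCDD and 12.89, 12.87, 13.01 and 13.15 after corn oil. In L-E rats Hsd11b1 read 12.48, 12.34, 11.98 and 12.29 after TCDD and 13.01, 12.87, 13.01 and 13.24 after corn oil. The Hsd11b1 signals of LnC rats were 11.90, 11.75, 11.85 and 12.18 after TCDD and 12.88, 12.91, 12.63 and 12.77 after corn oil. All TCDD rats of these 3 strains/lines lay below all corn oil rats. The LnA rats had 13.10, 12.92, 13.15 and 13.11 after TCDD and 13.00, 13.49, 13.46 and 13.60 after corn oil. Here 1 corn oil rat lay within the range of the TCDD rats. The difference was -0.88 ± 0.10 in LnC rats (1.84-fold lower, adjusted p = 0.00698), -0.76 ± 0.12 for L-E (adjusted p = 0.0162), -0.71 ± 0.13 for H/W (adjusted p = 0.0492) and -0.32 ± 0.13 in LnA rats (adjusted p = 0.353). Within scan days it was -0.61, -0.83 and -0.58 in H/W rats and -0.53 and -0.83 in L-E rats. The LnC call was lost without any 1 of 7 rats, the exception being TCDD rat 4, with an adjusted p of 0.0338 at most. In LnC rats the summed level of 5 macrophage and other immune markers, of 8 listed and all 5 above the array median, was 10.46 to 11.11 after TCDD and 11.24 to 11.40 after corn oil, and that of 6 hepatocyte markers was 17.92 to 18.00 after TCDD and 17.92 to 18.00 after corn oil. Among the immune markers Cd14, a monocyte receptor, fell by 0.93 ± 0.11 in LnC rats (adjusted p = 0.0081). The other immune markers were not called in LnC rats. Clec4f differed by -0.17 ± 0.17, Cd68 by -0.23 ± 0.09 and Cd3e by -0.12 ± 0.08. Ptprc differed by -0.05 ± 0.18 at its brighter probe set and 0.02 ± 0.03 at its dimmer one. The part of the immune markers in the LnC differences was not tested.

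**Figure D2:**
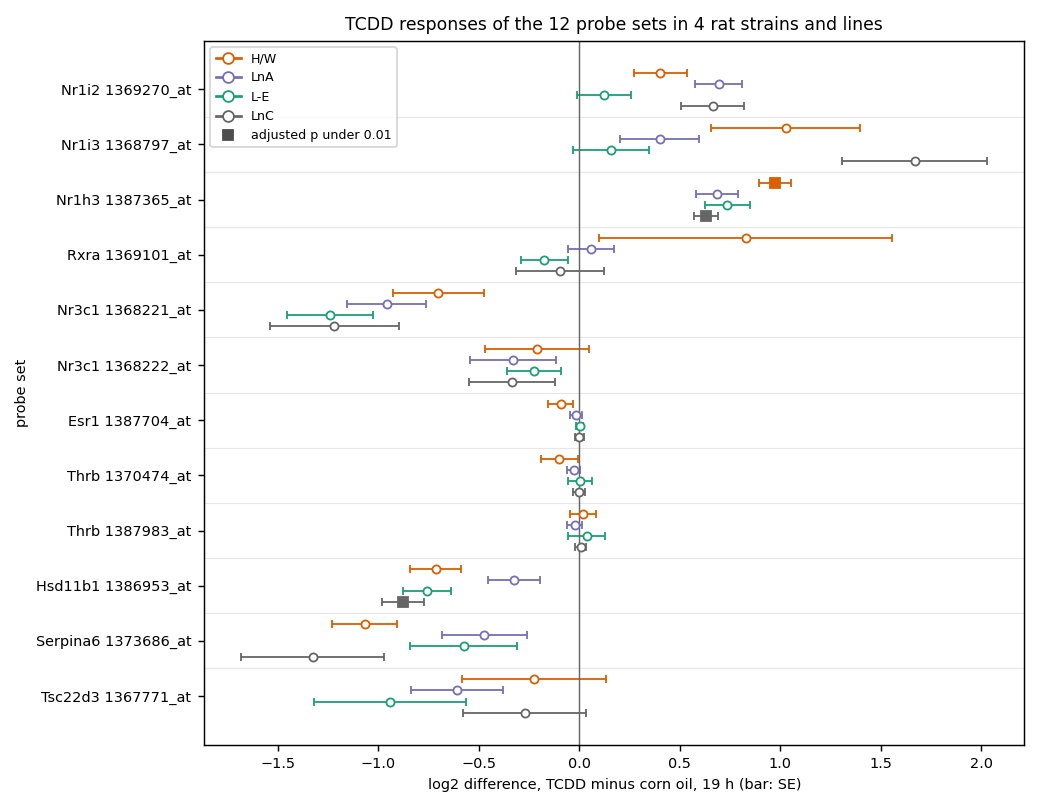
Log2 difference, TCDD minus corn oil at 19 h (x axis, bars are SE), for the 12 probe sets (rows) in H/W, LnA, L-E and LnC rats (colours), with filled squares where the adjusted p is under 0.01. Nr1h3 lies between 0.63 and 0.97 and Hsd11b1 between -0.88 and -0.32 in the 4 strains/lines.

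Nr3c1, the receptor itself, had lower means after TCDD in each strain/line, and no single strain/line passed the threshold. In LnA rats Nr3c1 read 7.08, 7.37, 7.65 and 7.47 after TCDD and 8.04, 8.21, 8.88 and 8.27 after corn oil. In L-E rats Nr3c1 read 6.94, 6.16, 7.04 and 7.06 after TCDD and 8.12, 7.88, 7.92 and 8.23 after corn oil. The groups did not overlap in LnA or L-E rats. The H/W rats had 7.63, 7.22, 7.87 and 7.21 after TCDD and 7.79, 8.36, 7.92 and 8.66 after corn oil. The LnC rats had 7.20, 6.63, 6.63 and 7.70 after TCDD and 8.73, 8.40, 8.32 and 7.58 after corn oil. In both H/W and LnC rats 1 TCDD rat lay above the lowest corn oil rat. The difference was -0.70 ± 0.23 in H/W (adjusted p = 0.285), -0.96 ± 0.20 in LnA (adjusted p = 0.0566), -1.24 ± 0.21 in L-E (adjusted p = 0.0219) and -1.22 ± 0.32 in LnC rats (adjusted p = 0.119). Without L-E TCDD rat 2, the lowest of all at 6.16, the L-E difference was -1.02 and passed the threshold (adjusted p = 0.00562). The dim second probe set gave differences of -0.33 to -0.21 in the 4 strains/lines, with an adjusted p of 0.498 or more. Over the 40 arrays the 2 Nr3c1 probe sets correlated at 0.53.

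Serpina6, which carries corticosterone in rat plasma, separated the treatments in H/W and LnC rats. In H/W rats Serpina6 read 12.24, 12.54, 12.04 and 11.72 after TCDD and 13.11, 13.24, 13.31 and 13.16 after corn oil. The LnC rats had 10.73, 12.09, 12.53 and 12.02 after TCDD and 13.12, 13.13, 13.26 and 13.17 after corn oil. In both, each TCDD rat lay below each corn oil rat. The difference was -1.07 ± 0.16 in H/W rats (adjusted p = 0.0266) and -1.33 ± 0.35 in LnC rats (adjusted p = 0.123). TCDD rat 1 of LnC stood apart at 10.73, and without it the LnC difference was -0.96 (adjusted p = 0.0175). Serpina6 differed by -0.47 ± 0.21 in LnA rats (adjusted p = 0.44) and -0.58 ± 0.27 in L-E rats (adjusted p = 0.346), where the groups overlapped. Tsc22d3, the receptor's target, averaged 7.98 ± 0.58 after TCDD and 8.20 ± 0.56 after corn oil in H/W rats and 6.87 ± 0.44 after TCDD and 7.81 ± 0.69 after corn oil in L-E rats (SD, n = 4). Its differences of -0.94 to -0.23 in the 4 strains/lines had an adjusted p of 0.268 or more.

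The xenobiotic receptors were more uneven. In LnA rats Nr1i2 read 8.08, 8.06, 8.46 and 8.05 after TCDD and 7.56, 7.49, 7.58 and 7.23 after corn oil. The LnC rats had 8.64, 8.29, 8.28 and 8.00 after TCDD and 7.82, 7.32, 7.76 and 7.66 after corn oil. Both lines showed no overlap for Nr1i2, with differences of 0.69 ± 0.12 in LnA (adjusted p = 0.0273) and 0.66 ± 0.16 in LnC rats (adjusted p = 0.0823). In the parental strains Nr1i2 differed by 0.40 ± 0.13 in H/W (adjusted p = 0.289) and 0.12 ± 0.13 in L-E rats (adjusted p = 0.759). In LnC rats Nr1i3 read 8.98, 9.24, 9.70 and 9.73 after TCDD and 7.87, 7.13, 7.30 and 8.68 after corn oil. Nr1i3 thus had no overlap in LnC rats, and the corn oil rats lay between 7.13 and 8.68. Its difference was 1.67 ± 0.36 in LnC (3.18-fold, adjusted p = 0.0632), 1.03 ± 0.37 in H/W (adjusted p = 0.346), 0.40 ± 0.20 for LnA (adjusted p = 0.521) and 0.16 ± 0.19 for L-E rats (adjusted p = 0.781).

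For Rxra, the common partner, no strain/line passed the threshold. Its difference was 0.06 ± 0.11 in LnA, -0.17 ± 0.12 in L-E and -0.10 ± 0.22 in LnC rats. In H/W rats Rxra read 8.05, 7.89, 8.01 and 8.19 after TCDD and 7.84, 8.47, 4.80 and 7.71 after corn oil. One H/W corn oil rat, number 3, stood far below the others. Of the 40 arrays, the array of this rat had the lowest median (3.52) and the lowest mean correlation with its own group (0.9917). The H/W difference was 0.83 ± 0.73 with that rat and 0.03 without it. Esr1 and Thrb, read at the low end of the scale, differed by -0.10 to 0.04 in the 4 strains/lines and none had an adjusted p under 0.609.

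Since the same direction recurred, the mean of the 4 TCDD responses was also tested in 1 fit over the 32 arrays of 19 h. This test was chosen after the values were seen and uses the same arrays as the comparisons by strain, so it is no independent evidence. In it Nr1h3 rose by 0.76 ± 0.05 (1.69-fold, adjusted p = 4.12e-12), Nr1i2 by 0.47 ± 0.07 (1.39-fold, adjusted p = 2.13e-05) and Nr1i3 by 0.81 ± 0.16 (1.76-fold, adjusted p = 0.00037). Nr3c1 fell by 1.03 ± 0.13 (2.04-fold lower, adjusted p = 1.4e-06), Hsd11b1 by 0.67 ± 0.06 (1.59-fold lower, adjusted p = 1.25e-08) and Serpina6 by 0.86 ± 0.14 (1.82-fold lower, adjusted p = 3.6e-05). In this mean response the receptors of foreign chemicals and oxysterols had more signal. The receptor, the activating enzyme and the carrier of glucocorticoids had less. The Nr1i2 and Nr1i3 differences in L-E rats, given above, were smaller than their SE. Of the 12 probe sets 6 were called, beside 11.4% of all probe sets. Each of the 6 was also called when any 1 of the 32 arrays was left out. Their mean signals over the 40 arrays lay at percentiles 81.5 to 99.1 of all probe sets, and the 11.4% includes dim ones. Tsc22d3 differed by -0.51 ± 0.17 (adjusted p = 0.0409), the second Nr3c1 probe set by -0.28 ± 0.11 (adjusted p = 0.11) and Rxra by 0.15 ± 0.21 (adjusted p = 0.687). Without H/W corn oil rat 3 the Rxra value was -0.05.

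Markers of other cell types were read in the same fit, which called 11.4% of all probe sets. The fit called 1 of 6 probe sets of macrophage and other immune markers (Cd14, -0.71 ± 0.15, adjusted p = 0.00072), 1 of 8 of stellate and endothelial markers (Lrat, the retinol-esterifying enzyme of stellate cells, 0.61 ± 0.13, adjusted p = 0.00116), 1 of 4 of bile duct markers (Epcam, an epithelial adhesion protein, -0.25 ± 0.06, adjusted p = 0.0069) and 0 of 5 of blood, pancreas and fat markers. Among 7 hepatocyte probe sets Apoa1 was higher (0.26 ± 0.07, adjusted p = 0.00944) and Ttr lower (-0.09 ± 0.02, adjusted p = 0.0018). The summed immune markers read 9.89 to 10.61 after TCDD and 10.06 to 10.97 after corn oil in H/W, 10.05 to 10.31 after TCDD and 10.13 to 10.22 after corn oil in LnA, and 10.80 to 11.33 after TCDD and 10.91 to 11.43 after corn oil in L-E rats. These ranges overlapped, unlike those of LnC rats given above. Both treatments also overlapped in the sums of the stellate and endothelial, the bile duct and the blood, pancreas and fat markers in each of the 4 strains/lines. The part of these markers in the mean responses was not tested.

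Whether the response differed between resistant and sensitive rats was asked with interactions, the response of resistant rats minus that of sensitive rats. Every strain/line has an AHR, so these interactions cannot show whether a response needs it. H/W and L-E rats also differ in more than the AHR. LnA and LnC rats, selected for resistance or sensitivity from crosses of these strains, may do so too. Over the collectives, for H/W minus L-E and for LnA minus LnC, limma called 0 of the 12 probe sets, beside 0.0630%, 0.0315% and 0.0693% of all probe sets. At an unadjusted p under 0.05 the counts were 1, 0 and 2, beside 7.39%, 9.47% and 4.07% of all probe sets. The first of these counts is near the share over all probe sets and the second is below it. The Hsd11b1 response was 0.30 ± 0.13 less negative in the resistant collective (unadjusted p = 0.028, adjusted p = 0.54), and 0.55 ± 0.17 less negative in LnA than in LnC rats (unadjusted p = 0.00678, adjusted p = 0.944). Between H/W and L-E rats the Hsd11b1 responses differed by 0.05 ± 0.18 (adjusted p = 0.892). The Nr1i3 response was 1.27 ± 0.43 smaller in LnA than in LnC rats (unadjusted p = 0.0108, adjusted p = 0.975). For Nr1h3 the interaction was 0.14 ± 0.10 over the collectives and for Nr3c1 0.40 ± 0.26, each with an adjusted p of 0.54.

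Levels without TCDD were compared among the corn oil rats in 1 fit of the 4 groups. In limma 0 of the 12 probe sets were called for H/W minus L-E, LnA minus LnC, LnA minus H/W or LnC minus L-E, beside 0.813%, 0.378%, 1.70% and 2.28% of all probe sets, and 2, 1, 2 and 4 of the 12 had an unadjusted p under 0.05, beside 16.3%, 8.44%, 15.6% and 23.8% of all probe sets. The first 3 of these counts are near the share over all probe sets. Hsd11b1 averaged 13.39 ± 0.26 in LnA, 13.03 ± 0.15 in L-E, 12.98 ± 0.13 in H/W and 12.80 ± 0.13 in LnC rats (SD, n = 4). The ends of that order differed by 0.59 ± 0.12 (LnA minus LnC, adjusted p = 0.033), and neighbours in it overlapped. Without LnA corn oil rat 1, the lowest of its group at 13.00, Hsd11b1 was higher in LnA than in LnC by 0.72 (adjusted p = 0.00206) and higher than in H/W by 0.54 (adjusted p = 0.00666). Nr1h3 averaged 10.41 ± 0.11 in LnC, 10.25 ± 0.17 in LnA, 10.13 ± 0.16 in H/W and 9.97 ± 0.15 in L-E rats, with a difference of 0.44 ± 0.10 for LnC minus L-E (adjusted p = 0.0204).

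Rxra in corn oil rats was split between the lines and the parental strains. It read 7.01, 6.77, 6.79 and 6.78 in LnA rats and 7.84, 8.47, 4.80 and 7.71 in H/W rats. It read 7.08, 7.14, 6.86 and 7.68 in LnC rats and 8.63, 8.57, 8.13 and 8.66 in L-E rats. Apart from H/W rat 3, each LnA rat was below each H/W rat and each LnC rat below each L-E rat. LnA minus H/W was -0.37 ± 0.57 over all rats (adjusted p = 0.922) and -1.17 without H/W rat 3 (adjusted p = 0.00931). LnC minus L-E was -1.31 ± 0.57 (adjusted p = 0.189), in a fit whose spread includes that rat. All arrays of LnA and LnC were scanned on 1 day and those of H/W and L-E at 19 h on 3 others, so scan day and line cannot be told apart in these 2 comparisons. After TCDD at 19 h the same order held, with Rxra at 6.74 to 7.21 in LnA, 7.89 to 8.19 in H/W, 6.75 to 7.39 in LnC and 8.28 to 8.38 in L-E rats. For Nr1i3, corn oil means were 7.74 ± 0.70 in LnC and 8.86 ± 0.16 in L-E rats (difference -1.11 ± 0.38, adjusted p = 0.109), and 7.91 ± 0.79 in H/W rats.

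At 3 h after TCDD, limma called 0 of the 12 probe sets between H/W and L-E rats, beside 1.77% of all probe sets. An unadjusted p under 0.05 was found for 4 of the 12, a smaller share than the 39.3% among all probe sets. They were Serpina6, the dim second Nr3c1 probe set and both dim Thrb probe sets. H/W minus L-E was 0.16 for that Nr3c1 probe set and 0.12 and 0.07 for Thrb, differences near the low end of the scale. Serpina6 averaged 12.80 ± 0.21 in H/W and 13.22 ± 0.25 in L-E rats (difference -0.41 ± 0.15, adjusted p = 0.108). Esr1 stood at 4.47 in H/W rat 1 of this time and at 2.26 to 2.49 in the other H/W rats.

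Hsd11b1 was lower at 19 h than at 3 h after TCDD in both strains. Hsd11b1 signals in H/W rats were 12.28, 11.97, 12.26 and 12.57 at 19 h and 13.37, 13.27, 13.69 and 13.42 at 3 h. Hsd11b1 signals in L-E rats were 12.48, 12.34, 11.98 and 12.29 at 19 h and 13.24, 13.18, 13.33 and 13.31 at 3 h. The times did not overlap in either strain. The difference was -1.17 ± 0.14 in H/W (2.25-fold lower, adjusted p = 0.00281) and -0.99 ± 0.10 in L-E rats (1.99-fold lower, adjusted p = 0.00237). In H/W rats 3 of 12 probe sets were called (Hsd11b1 and Nr1i2 lower, Nr1h3 higher), beside 4.25% of all probe sets. In L-E rats 2 of 12 were called (Hsd11b1 lower, Rxra higher), beside 3.44%. The 3 h arrays were all scanned on 1 separate day, so scan day and time cannot be told apart, nor can the hour of dosing, since livers of both times were taken in the morning.

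Nr1i2, the PXR gene, had less signal at 19 h than at 3 h. Nr1i2 signals in H/W rats were 8.36, 8.21, 8.49 and 8.10 at 19 h and 9.04, 8.98, 9.36 and 9.14 at 3 h. The times did not overlap. The difference was -0.84 ± 0.11 in H/W rats (adjusted p = 0.00384) and -0.71 ± 0.14 in L-E rats (adjusted p = 0.0223). Nr1h3 differed by 0.63 ± 0.05 in H/W rats (adjusted p = 0.000507) and 0.34 ± 0.13 in L-E rats (adjusted p = 0.166), and Rxra by 0.30 ± 0.08 in H/W rats (adjusted p = 0.06) and 0.52 ± 0.06 in L-E rats (adjusted p = 0.00423). Nr3c1 differed by -0.76 ± 0.15 in H/W rats (adjusted p = 0.0211) and -1.32 ± 0.26 in L-E rats (adjusted p = 0.0238). Tsc22d3, the target of that receptor, differed by -0.50 ± 0.34 in H/W rats (adjusted p = 0.408) and -1.78 ± 0.42 in L-E rats (adjusted p = 0.045). Tsc22d3 signals in L-E rats were 6.75, 7.49, 6.77 and 6.46 at 19 h and 9.03, 9.55, 8.30 and 7.71 at 3 h. The 2 times did not overlap. With 1 rat left out, the H/W calls of Nr1i2 and Hsd11b1 and the L-E call of Rxra were lost for 5, 2 and 6 of the 8 rats (adjusted p at most 0.0147, 0.0113 and 0.0157), and those of Nr1h3 in H/W and Hsd11b1 in L-E rats for none. Leaving out H/W rat 3 of 19 h brought the Nr3c1 difference past the threshold (-0.89, adjusted p = 0.00736).

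**Figure D3:**
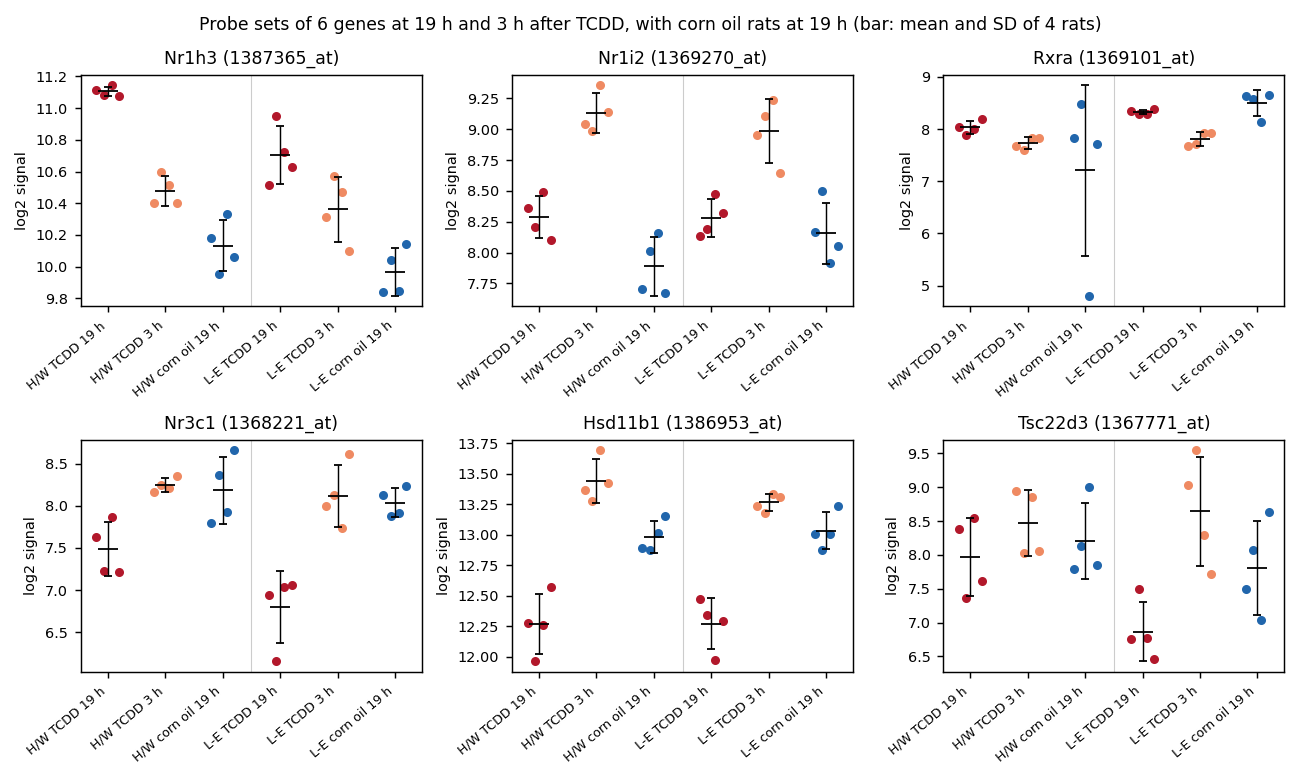
Log2 signal (y axis) of 6 probe sets in H/W and L-E rats at 19 h after TCDD (red), 3 h after TCDD (orange) and 19 h after corn oil (blue), with the mean and SD of 4 rats in black. Hsd11b1 at 19 h after TCDD averages 12.27 in both strains, below 13.44 in H/W and 13.27 in L-E rats at 3 h.

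The genes these proteins act on were followed in lists written with earlier results of these data known. The shares over all probe sets given beside the lists include dim probe sets and were not matched to the lists for signal. Over all probe sets 0.366%, 0.782%, 1.68% and 0.901% were called in H/W, LnA, L-E and LnC rats and 11.4% in the mean response, and 11.1%, 12.3%, 16.8%, 13% and 24.6% had an unadjusted p under 0.05 in the same order. Of 21 probe sets (18 genes) of CAR and PXR targets, 0 were called by limma in H/W (8 at an unadjusted p under 0.05), 2 in LnA, 4 in L-E and 1 in LnC rats, all lower after TCDD, and the median difference was -0.35 to -0.12. Cyp3a9, a steroid-hydroxylating P450, fell in 3 strains/lines: it differed by -1.41 ± 0.17 in LnA (adjusted p = 0.00843), -2.42 ± 0.33 in L-E (adjusted p = 0.00915) and -1.24 ± 0.13 in LnC (adjusted p = 0.00399), whereas H/W rats had -2.28 ± 0.33 (adjusted p = 0.023). In the mean response 10 of the 21 were called (47.6%, beside 11.4% of all probe sets), all lower, and among them Slco1a4, a hepatic uptake transporter known as a PXR target, differed by -2.27 ± 0.19 at its brighter probe set and Cyp3a2 by -0.67 ± 0.08. In the mean response Nr1i2 and Nr1i3 thus had more signal while 10 probe sets of their listed targets had less. No called probe set of that list was higher. Both Slco1a4 probe sets are among the 10. The listed CAR and PXR targets Cyp2b1, Cyp2b2 and Ugt1a1 had no probe set with exactly 1 symbol and were not read here. In L-E rats, where 4 target probe sets were called, Nr1i2 differed by 0.12 ± 0.13 and Nr1i3 by 0.16 ± 0.19. Cyp3a23-3a1, another listed target, differed by -0.04 ± 0.07 in the mean response and was not called.

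Of 19 probe sets (12 genes) of LXR targets, 1, 0, 1 and 2 were called in H/W, LnA, L-E and LnC rats (5, 3, 4 and 3 had an unadjusted p under 0.05), and all 4 calls belong to Elovl5, a fatty acid elongase. Elovl5 rose by 1.20 ± 0.12 in H/W (adjusted p = 0.00486), 1.31 ± 0.15 in L-E (adjusted p = 0.0044) and 1.09 ± 0.04 in LnC rats (adjusted p = 6.58e-05) at its brighter probe set, and differed by 0.84 ± 0.17 in LnA rats (adjusted p = 0.0541). In the mean response 2 were higher and 1 lower (15.8% of the list, near the 11.4% of all probe sets), and the lower one was Cyp7a1, the rate-limiting enzyme of bile acid synthesis, at -4.23 ± 0.75 (adjusted p = 0.000127). The list's median in the mean response was -0.04, against -0.01 over all probe sets.

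Of 20 probe sets (15 genes) of glucocorticoid-induced liver genes, 1 was called by limma in any strain/line, with 5 to 7 at an unadjusted p under 0.05. It was Sds, serine dehydratase, in LnA rats (-0.37 ± 0.04, adjusted p = 0.00356), at means of 2.88 after TCDD and 3.25 after corn oil, below the array medians. In the mean response 3 were higher and 2 lower (25% of the list, beside 11.4% of all probe sets). Tat, tyrosine aminotransferase, differed by 1.22 ± 0.17, and the metallothioneins Mt1 by 1.26 ± 0.21 and Mt2A by 1.56 ± 0.36. Pck1, the gluconeogenic carboxykinase, differed by -0.97 ± 0.22 and Angptl4, an inhibitor of lipoprotein lipase, by -1.73 ± 0.41. The list thus moved in both directions, with a median of -0.01. Of 10 probe sets (8 genes) of glucocorticoid metabolism other than Hsd11b1, limma called 0 in any strain/line or in the mean response, with 1 to 2 at an unadjusted p under 0.05 by strain/line and 6 in the mean response, where 24.6% of all probe sets had one.

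Among 46 probe sets (33 genes) of other nuclear receptors, 0, 0, 2 and 1 were called in H/W, LnA, L-E and LnC rats, with 7, 5, 7 and 6 at an unadjusted p under 0.05. Rxrg, another retinoid X receptor, rose by 1.22 ± 0.15 in LnC rats (adjusted p = 0.00929). Nr1h4, the bile acid receptor FXR, fell by 0.62 ± 0.06 (adjusted p = 0.0034) and Nr1d2, the clock repressor REV-ERB beta, by 1.50 ± 0.21 (adjusted p = 0.00955) in L-E rats. In the mean response 2 were higher and 5 lower (15.2% of the list, near the 11.4% of all probe sets). Nr5a2 (LRH-1) differed by 1.03 ± 0.13 and Nr0b2 (SHP), which represses it, by -2.43 ± 0.37. The 17 probe sets of thyroid hormone targets gave 0 calls in any strain/line (2 to 7 at an unadjusted p under 0.05) and 3 higher and 2 lower in the mean response (29.4% of the list, beside 11.4% of all), where Me1, malic enzyme, differed by 1.75 ± 0.29 at its brighter probe set. Of 9 probe sets of plasma hormone carriers other than Serpina6, 0 were called in any strain/line (0 to 2 at an unadjusted p under 0.05). In the mean response 3 were lower (33.3% of the list, beside 11.4% of all), among them Serpina7, the thyroxine-binding globulin, at -0.84 ± 0.17. Serpina7 differed by -2.34 ± 0.48 in L-E rats and by -0.67 to -0.13 in the other strains/lines. Ttr (-0.09 ± 0.02) and the dimmer Gc probe set (-0.27 ± 0.06) were also called. The brighter Gc probe set, at -0.03 ± 0.02, was not. Of 19 probe sets of receptor coregulators and chaperones 0 were called in any strain/line (1 to 3 at an unadjusted p under 0.05) or in the mean response (3). Genes given only for the mean response were chosen after their values were seen.

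**Figure D4:**
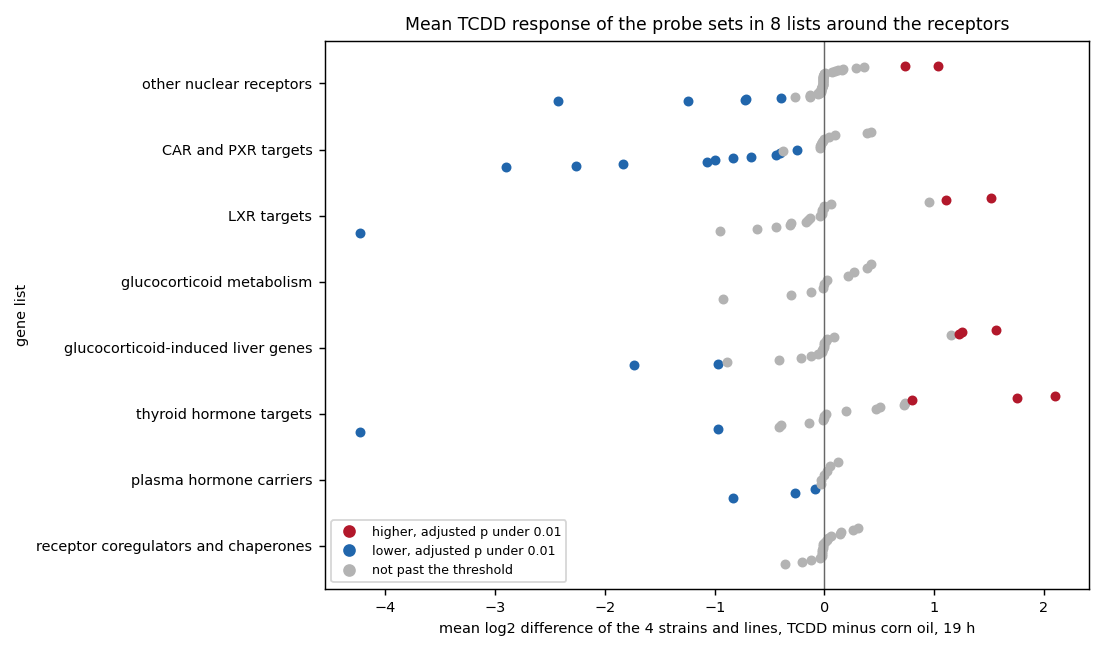
Mean log2 difference of the 4 strains and lines, TCDD minus corn oil at 19 h (x axis), for each probe set of 8 gene lists (rows), red where higher and blue where lower at an adjusted p under 0.01, grey otherwise. The 10 called probe sets of the CAR and PXR targets are all lower, and Cyp7a1 stands at -4.23 in 2 lists.

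The variation of the 12 probe sets was divided unevenly between the groups. Differences between the 10 group means made up 91.3% of the variation over the 40 arrays for Hsd11b1, 90% for Nr1h3 and 88% for Nr1i2. They made up 23.8% for the second Nr3c1 probe set and 16.1% for the dimmer Thrb probe set. With 10 groups over 40 arrays some share arises even where the groups do not differ. That part was not taken off, so the low shares need not show differences between groups. Over the 40 arrays Nr1h3 and Nr3c1 correlated at -0.66, and at -0.34 once the group means were taken off. The gene most like each member over the 40 arrays, among 10401 others, was Glrx for Nr1h3 (Pearson's r = 0.88), Pxk for Nr1i2 (0.88), Tspan33 for Nr1i3 (0.65), Hnf4a for Rxra (0.90), Slc25a13 for Nr3c1 (0.84), Aadat for Hsd11b1 (0.87), Dnase1l3 for Serpina6 (0.80) and Btg1 for Tsc22d3 (0.77). For Esr1 it was Nim1k (0.97) and for the brighter Thrb probe set Krt5 (0.88), both members at the low end of the scale. Single arrays that stood apart, at 4.47 for Esr1 and 4.80 for Rxra, enter these correlations, and their part was not tested. The 40 arrays share groups, treatments, times and scan days, so each correlation describes all of these at once.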

How the data were processed

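Liver RNA of 40 rats was measured on 40 RAE230A arrays. The log2 values are those deposited by the authors, whose processing notes in the labels name R 2.3.1, affy 1.10.0 and GCRMA 2.4.1. The study's methods name RMA in place of GCRMA, and fold sizes can depend on which of them made the values, which was not tested; no step from raw intensities was repeated here, and 0 value columns were left unused. After 57 control probe sets were left out, 15866 were fitted with limma 3.58.1 (R 4.3.3), each TCDD effect on its own 8 arrays, with Benjamini-Hochberg adjustment over all and calls at an adjusted p under 0.01. The p-values measure the spread among rats that shared a cage. For a single value of 4 against 4 rats, the smallest two-sided exact permutation p is 0.0286.

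The members and gene lists were chosen with earlier results of these data known. Genes named from a list are up to 3 per direction with the largest difference among those called in at least 2 strains/lines, or in 1 where none was, by the brightest probe set. The gene most like each member is the one with the highest Pearson correlation. Replicate numbers were checked for pairing by correlating deviations from group means over 3127 probe sets: every pair exceeded 0.1 only in LnA rats (0.1 to 0.132), where neither labels nor methods state a pairing. The fits by strain/line were tested on simulated data with known differences. The number of arrays limits the precision.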

Additional observations from a re-analysis of the deposited data

Results flagged for a closer look

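In 12 of 120 sets of 4 rats, the highest or lowest value stood far from the other 3, with a gap above 0.829 of the whole range, where chance alone gives about 1 in 20. Nr1i2 read 8.46 in LnA TCDD rat 3 and 8.05 to 8.08 in the others of its group. Nr1h3 read 10.24 in LnC corn oil rat 3, with 10.45 to 10.47 in the others. Rxra read 7.01 in LnA corn oil rat 1 (others 6.77 to 6.79) and 8.13 in L-E corn oil rat 3 (others 8.57 to 8.66). Nr3c1 read 6.16 in L-E TCDD rat 2 (others 6.94 to 7.06) at its brighter probe set, and 4.41 in L-E corn oil rat 4 (others 3.83 to 3.87) at its dimmer one. Serpina6 read 13.30 in LnA corn oil rat 1, with 12.85 to 12.91 in the others.

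The remaining 5 lie in dim probe sets. Esr1 read 4.47 in H/W rat 1 at 3 h after TCDD, with 2.26 to 2.49 in the others. The brighter Thrb probe set read 2.85 in L-E TCDD rat 1 (others 2.64 to 2.66), 2.80 in L-E corn oil rat 4 (others 2.65 to 2.67) and 3.06 in H/W corn oil rat 1 (others 2.64 to 2.71). The dimmer Thrb probe set read 2.35 in H/W corn oil rat 3, with 2.49 to 2.52 in the others.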

How the results depend on the processing

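Of 58 differences of the 12 probe sets with an unadjusted p under 0.05, 1118 alternative values were computed: 0 changed direction, 41 lost the call and 27 gained one. Only a difference called in the main fit could lose a call, so the 41 are not to be read as a share of the 1118. The 6 calls of the mean response lost none. Among the 122 differences with an unadjusted p of 0.05 or more, 152 of 2359 changed sign. The number of the 12 probe sets called was 1 in H/W rats (2 with limma's trend, 0 when blocked on scan day, 2 in 1 fit over the 10 groups, 3 at an adjusted p under 0.05), 0 in LnA rats (2 in 1 fit, 2 at 0.05), 0 in L-E rats (3 without the lowest 40% of probe sets, 1 after quantile normalization, 2 with the trend, 3 in 1 fit, 3 at 0.05) and 2 in LnC rats (1 after quantile normalization, 1 after median centring, 6 in 1 fit). In corn oil rats it was 0, against 1 in 1 fit for LnA minus LnC, and 1 in 1 fit and 1 after quantile normalization for LnC minus L-E. For 19 h minus 3 h in L-E rats it was 2, against 1 after median centring, 1 with the trend and 4 in 1 fit. With 1 rat left out it was 0 to 1 in H/W, 0 in LnA, 0 to 1 in L-E and 0 to 1 in LnC rats, 1 to 3 and 1 to 2 for the times in H/W and L-E rats, 0 to 1 for LnA minus LnC and LnA minus H/W, 0 in the other comparisons and 6 in the mean response.

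Blocking on replicate number gave a count of 0 in H/W, LnA, L-E and LnC rats and 0 for both comparisons of times. Nr1h3 then had an adjusted p of 0.0142 in H/W and 0.06 in LnC rats, and Hsd11b1 0.0645 in LnC rats. Outside LnA rats the numbers did not meet the criterion for pairing. In H/W and L-E rats at 19 h, TCDD and corn oil rats of the same number shared a scan day. The block there thus also holds scan day. Over all probe sets the block left 30, 15, 50 and 6 calls in H/W, LnA, L-E and LnC rats. Without it 58, 124, 266 and 143 were called. In 1 fit over the 10 groups 362, 314, 897 and 553 were called in that order, and without the lowest 40% 93, 167, 421 and 197. Median centring moved the share of higher calls to 90.7% in H/W and 85.5% in LnA rats, against 77.6% and 68.5%. The cause of these changes was not tested.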
